A study of Mus musculus with 2 samples.

Results

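The 10 genes described here encode RNA-binding proteins of the neural lineage: Elavl2, Elavl3, Elavl4, Ptbp1, Ptbp2, Nova1, Rbfox2, Rbfox3, Srrm4 and Khdrbs2. They were chosen by name as a set associated with the passage from progenitor to neuron, and all 10 were found among the 18079 gene symbols of the deposited matrix. The cells came from the medial ganglionic eminence (MGE), a ventral region of the embryonic forebrain from which cortical interneurons and basal forebrain neurons arise. CD-1 mouse embryos at E11.5 were used, and cells carrying 1 of the 2 enhancers hs192 and hs799 were pooled into 1 RNA library on the 10x platform with MULTI-seq, a method that tags each cell suspension with its own barcode. Of 6 sample barcodes, 4 marked GFP-gated cells (2 for each enhancer) and 2 marked ungated cells (1 for each enhancer). No map from cells to barcodes was used here, so embryos, enhancers and gates could not be separated, and the gate can set the share of every cell class. With 1 library and no replicate, no difference had a replicate check and none was tested. Values are levels with their spread over cells.

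Among the 3995 cells used, neuron-like cells made up 43.5% (1737 cells, exact 95% interval 41.9% to 45.0%) in 7 clusters. Subventricular zone (SVZ) progenitor-like cells made up 15.7% (629 cells, 14.6% to 16.9%) and ventricular zone (VZ) progenitor-like cells 27.0% (1080 cells, 25.7% to 28.4%), in 3 clusters each. The VZ lines the ventricle and holds the dividing stem cells, and the SVZ holds the intermediate progenitors that lie between them and the neurons. The 10 genes were left out of the clustering, so their levels did not define the clusters. All 11 neuron markers were higher past 2-fold in the neuron-like than in the VZ progenitor-like cells. The same markers named the class, so this was largely set by the naming and is no separate support for it. Clusters 6 (302 cells, led by Arl4d and Lhx8) and 7 (247 cells, led by St18) had high Tubb3, a neuronal tubulin, at 28.0 and 28.7 per 10000, but met no naming rule and stayed unnamed. Among the 10 leading genes, VZ cluster 3 held Mcm5 of the SVZ list and VZ cluster 14 held Nr2f2 of the caudal ganglionic eminence (CGE) list. Markers of vessels, mural cells, microglia and mesenchyme had 1, 1, 1 and 2 measured genes and summed levels of at most 0.0492 per 10000 in any cluster, and erythroid markers lay between 1.29 and 1.87 in all clusters. Median cell totals of the deposited values were 12061 in neuron-like, 12272 in SVZ and 13512.5 in VZ cells.

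As background, neurons and their progenitors process the same transcripts differently, and RNA-binding proteins direct much of that difference. Ptbp1 represses many neuronal exons in dividing cells. Its paralogue Ptbp2 takes over in young neurons, and in the mouse Ptbp1 keeps Ptbp2 protein low by skipping an exon of the Ptbp2 transcript, which is then degraded. Srrm4 promotes the inclusion of neuronal microexons, Rbfox, Nova and Khdrbs proteins direct further neuronal splicing, and the Elavl2 to Elavl4 proteins (HuB, HuC and HuD) bind AU-rich and U-rich sequences and act on splicing and mRNA stability. REST, a repressor of neuronal genes in progenitors, and the microRNA miR-124, which targets Ptbp1, are known upstream of this change.

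The regulated exon of Ptbp2 is shown because the results turn on Ptbp2 transcript levels that are read without regard to this exon. In the GENCODE annotation of GRCm38 it is exon 10, at chr3:119724612-119724645 on the minus strand, and its 34 bases leave a remainder of 1 after division by 3. Of 13 annotated Ptbp2 transcripts, 3 contain it and all 3 are coding, while the 2 that skip it are both annotated as subject to nonsense-mediated decay. Capitals mark the exon, in full.
Ptbp2 exon 10: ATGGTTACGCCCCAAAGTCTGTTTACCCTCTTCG

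Promoter windows of 300 bases are shown for Ptbp1 and Ptbp2, whose levels moved differently, and for Elavl3 and Khdrbs2, which were raised early and late along the axis from progenitor to neuron. They were taken from RefSeq on build GRCm38.p6, which held promoters for 9 of the 10 genes (all but Rbfox2). Windows lie at chr10:79854182-79854481 (plus strand, Ptbp1), chr3:119783339-119783638 (minus, Ptbp2), chr9:22051974-22052273 (minus, Elavl3) and chr1:32172472-32172771 (plus, Khdrbs2). Capitals mark CAGCTG, an E-box, or GCTGTCC, the reverse complement of GGACAGC, part of the element that REST binds. Both motifs were searched on both strands.
Ptbp1 promoter: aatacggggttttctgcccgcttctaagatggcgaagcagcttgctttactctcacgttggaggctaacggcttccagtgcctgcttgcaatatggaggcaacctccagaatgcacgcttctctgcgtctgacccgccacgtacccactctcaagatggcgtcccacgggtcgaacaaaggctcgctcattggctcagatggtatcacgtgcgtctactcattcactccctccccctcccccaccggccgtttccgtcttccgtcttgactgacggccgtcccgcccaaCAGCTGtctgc
Ptbp2 promoter: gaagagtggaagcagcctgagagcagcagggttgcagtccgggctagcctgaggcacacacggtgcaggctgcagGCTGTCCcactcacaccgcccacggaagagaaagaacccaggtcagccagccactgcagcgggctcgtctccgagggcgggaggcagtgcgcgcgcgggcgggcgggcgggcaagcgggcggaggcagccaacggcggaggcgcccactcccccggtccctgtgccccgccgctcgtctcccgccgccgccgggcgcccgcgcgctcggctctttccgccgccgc
Elavl3 promoter: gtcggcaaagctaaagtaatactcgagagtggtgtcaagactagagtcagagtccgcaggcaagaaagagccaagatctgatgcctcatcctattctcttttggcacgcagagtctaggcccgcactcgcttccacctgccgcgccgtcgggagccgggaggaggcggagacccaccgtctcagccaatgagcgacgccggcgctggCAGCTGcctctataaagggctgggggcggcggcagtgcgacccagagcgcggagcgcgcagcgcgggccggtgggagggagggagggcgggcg
Khdrbs2 promoter: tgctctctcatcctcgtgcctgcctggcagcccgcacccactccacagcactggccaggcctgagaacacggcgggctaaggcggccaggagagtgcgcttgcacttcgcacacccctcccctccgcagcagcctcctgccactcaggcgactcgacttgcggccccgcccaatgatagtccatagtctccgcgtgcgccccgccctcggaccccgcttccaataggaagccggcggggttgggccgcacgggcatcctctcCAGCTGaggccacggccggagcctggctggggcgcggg
CAGCTG occurred in at least 1 promoter of 6 of the 9 genes (Elavl2, Elavl3, Elavl4, Ptbp1, Nova1 and Khdrbs2), against 18.3% of 27025 genes and 16.3% of 32851 promoters of the same length. Elavl2 had it in 3 of 6 promoters and Elavl4 in 2 of 4, so genes with more annotated promoters had more chances to hold it. GGACAGC occurred in 1 of the 9 genes, Ptbp2, against 7.59% of genes and 6.56% of promoters. These are letter matches only.

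In neuron-like cells, 7 of the 10 genes were higher than in VZ progenitor-like cells past 2-fold (Elavl2, Elavl3, Elavl4, Rbfox2, Rbfox3, Srrm4 and Khdrbs2) and 1, Ptbp1, was lower. Ptbp2 and Nova1 did not pass 2-fold. Among 14674 genes with at least 30 summed values over both classes, 17.6% were higher and 24.3% lower past 2-fold (41.9% in all), and the median log2 ratio was -0.15, against 2.30 over the 10 genes. All 10 had enough values to be read. Levels are summed values per 10000 summed values of the class. They were not divided by transcript length, and were read to compare classes. Parts of a summed value, given for the Ptbp and Elavl genes, set genes side by side but were read across classes and clusters.

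**Figure D1:**
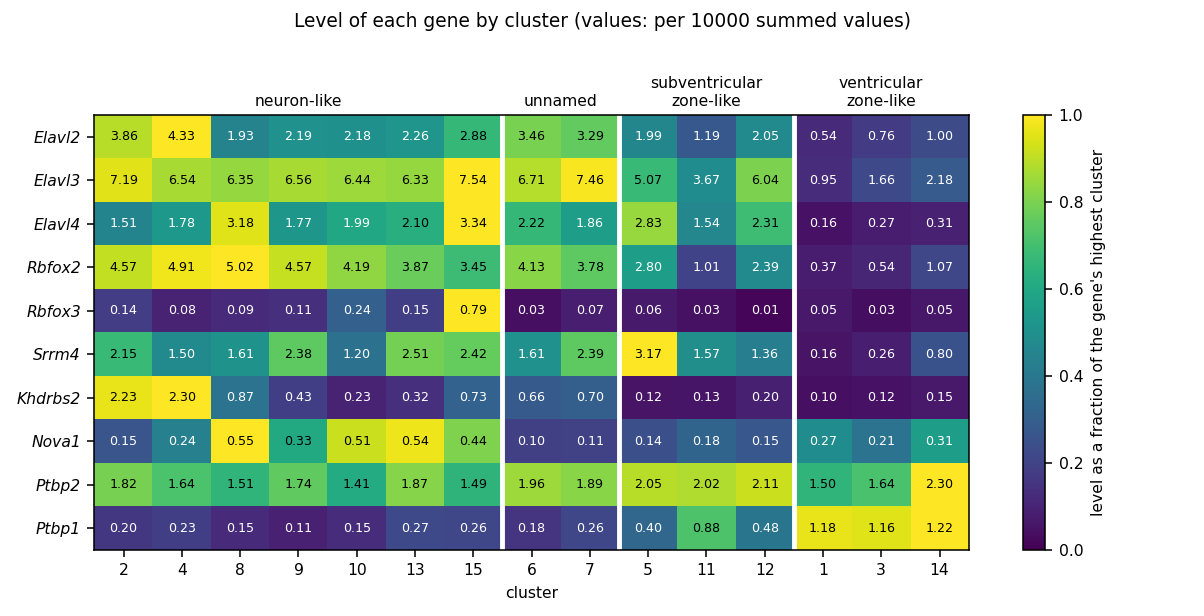
Level of each of the 10 genes (rows) in each of the 15 clusters (columns, neuron-like clusters at the left and VZ progenitor-like clusters at the right), with the level per 10000 summed values printed in each cell and the colour giving its fraction of the gene's highest cluster. Rows for Elavl3 and Rbfox2 are bright through all neuron-like and both unnamed clusters, the Ptbp1 row is bright in the 3 VZ clusters, and the Ptbp2 row differs by 1.63-fold at most.

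Ptbp1, the repressor of neuronal exons, averaged 0.188 ± 0.409 per 10000 in neuron-like cells and 1.18 ± 0.896 in VZ cells (SD over 1737 and 1080 cells), a log2 ratio of -2.64. It had a value in 19.9% of neuron-like cells (exact 95% interval 18.1% to 21.9%) and 81.5% of VZ cells (79.0% to 83.8%). Over the 7 neuron-like clusters its level was lowest at 0.114 (cluster 9, CGE-like), had a median of 0.201 and was highest at 0.268 (cluster 13). In VZ clusters 1, 3 and 14 it was 1.18, 1.16 and 1.22, so the cluster levels of the 2 classes did not overlap. The SVZ clusters lay between them, at 0.404 in cluster 5, 0.884 in cluster 11 and 0.475 in cluster 12. The SVZ cluster nearest to the VZ level, cluster 11, was led by histone genes, a mark of DNA replication. Ptbp1 overlaps 3 other measured genes on the opposite strand, Plppr3 among them, and no source used here says whether counting used the strand.

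Ptbp2, the neuronal paralogue, had nearly the same transcript level on both sides. It averaged 1.67 ± 1.3 per 10000 in neuron-like cells and 1.59 ± 1.21 in VZ cells, a log2 ratio of 0.07 that lay between -0.04 and 0.12 under the alternatives run. It was found in 83.6% of neuron-like cells (81.8% to 85.4%) and 86.3% of VZ cells (84.1% to 88.3%). Across clusters it was lowest in the LGE-like cluster 10 at 1.41 (LGE, the lateral ganglionic eminence) and highest in VZ cluster 14 at 2.30. The values do not tell transcripts with exon 10 from those without it. As a part of the summed Ptbp1 and Ptbp2 values, Ptbp1 made up 10.1% in neuron-like cells, 20.9% in SVZ cells and 42.5% in VZ cells. Single neuron-like clusters ranged between 6.1% in cluster 9 and 14.9% in cluster 15, and VZ clusters between 34.8% in cluster 14 and 44.1% in cluster 1.

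The 3 neuronal Elavl genes were all higher in neuron-like cells. Elavl3 averaged 6.72 ± 2.72 per 10000 in neuron-like cells and 1.32 ± 1.42 in VZ cells (log2 ratio 2.34). It was the steadiest of the 3 among neuron-like clusters, with a lowest level of 6.33, a median of 6.54 and a highest of 7.54, against 0.950, 1.66 and 2.18 in VZ clusters 1, 3 and 14. Every neuron-like cluster was above every VZ cluster, and 99.9% of neuron-like cells and 69.3% of VZ cells had a value.

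Elavl2 averaged 3.16 ± 2.58 per 10000 in neuron-like cells and 0.659 ± 0.833 in VZ cells (log2 ratio 2.26). Its neuron-like clusters were spread more widely, with a lowest level of 1.93, a median of 2.26 and a highest of 4.33, against 0.539, 0.761 and 1.0 in VZ clusters 1, 3 and 14. The highest were cluster 4, cholinergic neuron-like, at 4.33 and cluster 2, GABAergic MGE neuron-like, at 3.86. Elavl4 averaged 1.97 ± 1.83 in neuron-like cells and 0.213 ± 0.546 in VZ cells (log2 ratio 3.21). It was lowest in cluster 2 at 1.51, had a median of 1.99 over neuron-like clusters and was highest in cluster 15 at 3.34, against 0.158, 0.266 and 0.306 in VZ clusters 1, 3 and 14. Cluster 15 was also above the neuron-like median for Elavl2, at 2.88, while cluster 8, next for Elavl4 at 3.18, was the lowest for Elavl2. Elavl4 made up 28.6% of the summed Elavl2, Elavl3 and Elavl4 values in SVZ cluster 5 and 27.8% in the cholinergic neuron-like cluster 8, against 12% in the GABAergic cluster 2 and 9.6% in VZ cluster 1.

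Rbfox2, a splicing regulator that binds GCAUG, averaged 4.59 ± 2.18 per 10000 in neuron-like cells and 0.480 ± 0.698 in VZ cells (log2 ratio 3.26). Neuron-like clusters lay between 3.45 in cluster 15 and 5.02 in cluster 8 with a median of 4.57, and VZ clusters 1, 3 and 14 were at 0.375, 0.542 and 1.07. Rbfox3, whose protein is the mature neuron antigen NeuN, was sparse at this stage. It averaged 0.144 ± 0.406 in neuron-like cells and 0.0419 ± 0.179 in VZ cells (log2 ratio 1.78), and had a value in 14.1% and 5.28% of them. Its highest cluster was the 40-cell glutamatergic neuron-like cluster 15, led by Otp, at 0.786 ± 1.07 per 10000 with a value in 55.0% of cells (38.5% to 70.7%), and the LGE-like cluster 10 came next at 0.240. Of the other neuron-like clusters none passed 0.146. A list of hypothalamic neuron markers (Otp, Hmx2, Hmx3 and Sim1) summed to 9.29 per 10000 in cluster 15 and 6.49 in cluster 13. It reached at most 0.109 in any other cluster. In cluster 15 the glutamatergic list summed to 6.33. Whether clusters 13 and 15 are MGE neurons was not tested.

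Srrm4, the microexon activator, averaged 1.87 ± 1.81 per 10000 in neuron-like cells and 0.235 ± 0.622 in VZ cells (log2 ratio 2.99). Its highest cluster was not a neuron-like one: SVZ cluster 5, led by Gadd45g, Gsx1 and Dll3, reached 3.17 ± 2.73. Neuron-like clusters lay between 1.2 in the LGE-like cluster 10 and 2.51 in cluster 13, led by Hmx2 and Hmx3, with a median of 2.15. Srrm4 overlaps its antisense gene Srrm4os, and reads of the 2 cannot be told apart if strand was not used. Khdrbs2 (SLM1), known for directing alternative splicing of neurexin transcripts, had the largest log2 ratio of the 10 at 3.73, with 1.44 ± 2.04 in neuron-like cells and 0.108 ± 0.287 in VZ cells. That mean came mostly from a pair of clusters: the cholinergic cluster 4 at 2.30 and the GABAergic MGE cluster 2 at 2.23, against 0.229 to 0.872 in the other 5 neuron-like clusters. Nova1, a regulator of synaptic transcripts, averaged 0.320 ± 0.624 in neuron-like cells and 0.243 ± 0.426 in VZ cells (log2 ratio 0.40). It was higher in clusters 8, 13 and 10, at 0.550, 0.536 and 0.506, than in VZ clusters 1, 3 and 14, at 0.268, 0.209 and 0.306, but lower in cluster 2 at 0.146.

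When the 15 clusters were placed in order of level, all 14 neighbouring pairs differed by less than the larger SD over cells, for each of the 10 genes. That SD is the spread of single cells, so it describes overlap of cells and not the certainty of a cluster's level. Exact intervals for the share of cells with a value overlapped in 10 (Elavl4) to 13 of the 14 pairs. Most neighbours in the order were thus not separated by that share. For Ptbp2, Nova1, Rbfox3 and Khdrbs2 the highest and lowest clusters also differed by less than the larger SD. The share intervals of these end clusters were nevertheless apart for Khdrbs2 (75.6% in cluster 4 and 12.5% in cluster 1). So they were for Rbfox3 (55.0% in cluster 15, 1.65% in cluster 12) and Nova1 (39.1% in cluster 8, 10.9% in cluster 6). They overlapped for Ptbp2 (93.6% in cluster 14 and 81.3% in cluster 10). From highest to lowest cluster the fold was 1.63 for Ptbp2, 7.93 for Elavl3, 8.02 for Elavl2, 10.8 for Ptbp1, 13.4 for Rbfox2, 19.4 for Srrm4, 21.2 for Elavl4 and 23.4 for Khdrbs2. It was 5.31 for Nova1 and 60.3 for Rbfox3. The lowest cluster was at 0.0130 per 10000 for Rbfox3, 0.0982 for Khdrbs2, 0.104 for Nova1 and 0.114 for Ptbp1, so these folds rest on low values.

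Levels in the lower class were compared with the level that class markers kept outside their own class. Those markers also named the classes, so their levels outside can be low partly by construction. Of their level in VZ cells, the 10 VZ markers kept a median of 5.46% in neuron-like cells (range 0.855% to 41.4%), and Ptbp1 kept 16.0%. Of their level in neuron-like cells, the 11 neuron markers kept a median of 6.42% in VZ cells (1.90% to 27.0%). Elavl2 kept 20.8%, Elavl3 19.7%, Srrm4 12.6%, Elavl4 10.8%, Rbfox2 10.4% and Khdrbs2 7.54% there, and Rbfox3 29.1%. All 8 values lay above the marker median, and all but that of Rbfox3 lay within the marker range. RNA from outside the cell can add to a share of cells with a value. Hes5, a Notch target of progenitors, had a value in 24.4% of neuron-like cells, and the 11 neuron markers had a value in 12.5% (Snap25) to 80.3% (Stmn3) of VZ cells. Ptbp1 was found in 19.9% of neuron-like cells, and Elavl4, Srrm4, Rbfox2 and Elavl3 in 20.2%, 19.8%, 42.7% and 69.3% of VZ cells. None of these shares was read as expression, although Ptbp1 kept more of its level than Hes5 did (2.38%).

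In the unnamed clusters 6 and 7, some genes lay within the range of the neuron-like clusters: Elavl3 was at 6.71 and 7.46, Rbfox2 at 4.13 and 3.78 and Ptbp1 at 0.185 and 0.261 per 10000. Khdrbs2, at 0.655 and 0.696, was below its level in clusters 2 and 4. Nova1, at 0.104 and 0.106, and Rbfox3, at 0.0308 and 0.0660, were below every neuron-like cluster.

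**Figure D2:**
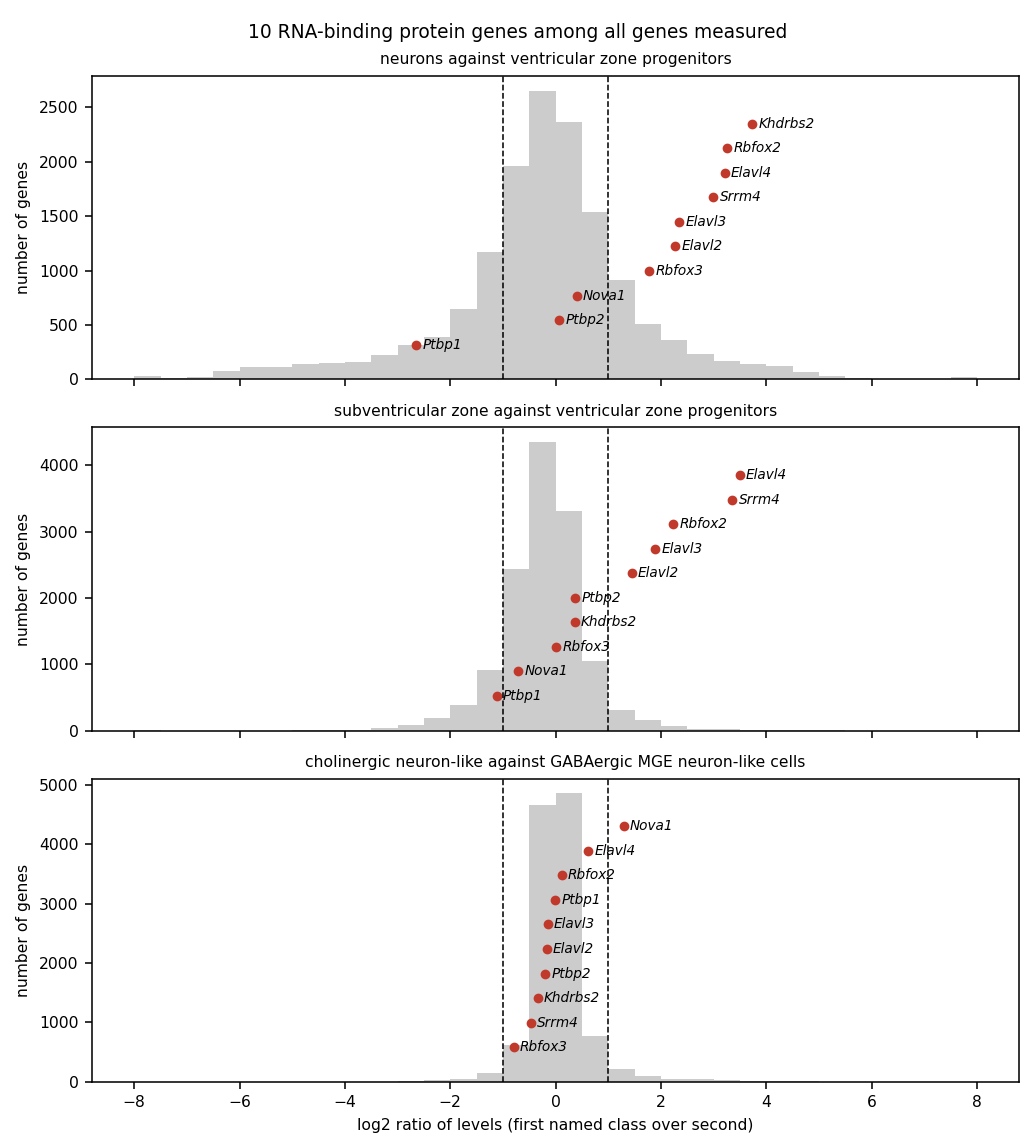
Grey bars count all genes by log2 ratio of levels in steps of 0.5, and red points mark the 10 genes at their ratios (height has no meaning), for neuron-like over VZ progenitor-like cells, SVZ over VZ progenitor-like cells, and cholinergic over GABAergic MGE neuron-like cells. Dashed lines mark 2-fold, and 7, 5 and 1 of the 10 genes lie beyond the right line in the 3 panels.

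In SVZ progenitor-like cells, 5 of the 10 genes were already higher than in VZ cells past 2-fold and Ptbp1 was lower. Across 13426 genes, 4.7% were higher and 12.2% lower past 2-fold (16.9% in all), and the median log2 ratio was -0.18, against 0.90 over the 10. Elavl4 averaged 2.39 ± 2.24 per 10000 in SVZ cells and 0.213 ± 0.546 in VZ cells (log2 ratio 3.49), and Srrm4 averaged 2.40 ± 2.40 in SVZ cells and 0.235 ± 0.622 in VZ cells (3.36). Both levels were above the mean of neuron-like cells. The ratio was 2.23 for Rbfox2, 1.89 for Elavl3 and 1.44 for Elavl2, whose SVZ levels of 2.25, 4.90 and 1.79 were below those of neuron-like cells. Ptbp1 averaged 0.542 ± 0.711 in SVZ cells and 1.18 ± 0.896 in VZ cells (log2 ratio -1.12).

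The other 4 genes did not pass 2-fold between SVZ and VZ cells, but Rbfox3 had a log2 ratio of 1.01 with clustering seed 1, which made 6 genes higher, and 0.95 with doublets kept. Khdrbs2 was at 0.139 in SVZ and 0.108 in VZ cells, and Rbfox3 at 0.0420 in SVZ and 0.0419 in VZ cells. Ptbp2 averaged 2.05 ± 1.38 in SVZ cells and 1.59 ± 1.21 in VZ cells (log2 ratio 0.36), its highest class level. Nova1 averaged 0.149 ± 0.341 in SVZ cells and 0.243 ± 0.426 in VZ cells (log2 ratio -0.71), so it was lower in the intermediate class than on either side of it. The SVZ clusters differed among themselves: Srrm4 was 3.17, 1.57 and 1.36 and Rbfox2 2.80, 1.01 and 2.39 in clusters 5, 11 and 12. Cluster 12, led by the mitotic genes Ube2c, Cdc20 and Ccnb1, and cluster 11 had Mki67 (a marker of dividing cells) at 5.28 and 5.01 per 10000, against 0.476 in cluster 5. Cluster 5 held 353 of the 629 SVZ cells, so the class levels lean on it. In cluster 11 Elavl2 was at 1.19 and Ptbp1 at 0.884, against 0.659 and 1.18 in VZ cells, and Elavl2 did not pass 2-fold there.

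Cells were also placed along a score of 14 neuronal minus 12 progenitor genes, none of them among the 10, and divided into 10 bins of equal size. The score orders cells and is not a measure of time. Its genes include all 11 neuron markers and all 10 VZ markers that named the classes. The bins thus largely repeat the class contrast and are no separate support for it. Bin 4 consisted of 84.5% SVZ cells, with bins 1 to 3 mainly VZ cells (97.5%, 93.0% and 72.5%) and bins 7 to 10 mainly neuron-like cells (74.2% to 100%). Bins 5 and 6 held 52.0% and 47.1% cells of the unnamed clusters. Between bin 1 and bin 10, 8 of the genes were higher past 2-fold and Ptbp1 was lower, the addition to the 7 being Nova1 (log2 ratio 1.17). No share of all genes past 2-fold was computed for these bins, so the counts have no background beside them. With 5 bins, or with the progenitor genes alone as the score, Nova1 did not pass 2-fold (0.79 and 0.80).

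**Figure D3:**
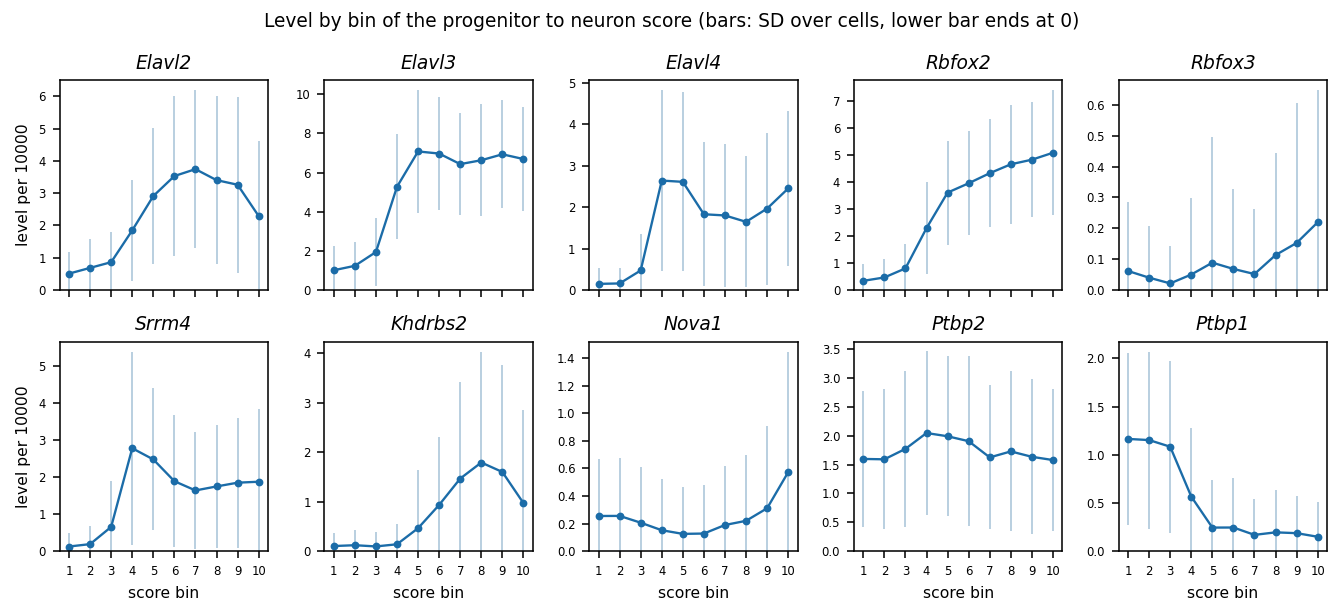
Level per 10000 summed values (y axis, a separate scale for each gene) of the 10 genes in 10 bins of the progenitor to neuron score (x axis), with the SD over cells as bars whose lower end stops at 0. Elavl4 and Srrm4 are highest in bin 4, Elavl2 in bin 7 and Khdrbs2 in bin 8, Rbfox2 climbs to bin 10, and Ptbp1 is highest in bin 1.

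The genes passed the midpoint between their lowest and highest bin in different places. Elavl3, Elavl4, Srrm4 and Ptbp1 did so in bin 4, Elavl2 and Rbfox2 in bin 5, Khdrbs2 in bin 7, Rbfox3 in bin 9 and Nova1 in bin 10. Elavl3 went through 1.01, 1.23 and 1.94 per 10000 in bins 1 to 3, then 5.27 in bin 4 and 7.08 in bin 5, and stayed between 6.43 and 6.97 after that. Ptbp1 was at 1.16, 1.15 and 1.08 in bins 1 to 3, 0.566 in bin 4 and 0.245 in bin 5, and reached 0.150 in bin 10. Those 2 genes thus crossed in the same bins, in opposite directions.

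Elavl4 and Srrm4 were highest in the bin of SVZ cells. Elavl4 had 0.471 per 10000 in bin 3, 2.64 in bin 4, 1.65 at its later low in bin 8 and 2.45 in bin 10. Srrm4 had 0.657 in bin 3, 2.78 in bin 4, 1.64 in bin 7 and 1.88 in bin 10. Elavl2 was highest in bin 7 at 3.74 and lower again at 2.29 in bin 10, and Khdrbs2 was at 0.140 in bin 4, 1.79 in bin 8 and 0.972 in bin 10. Rbfox2 was higher in each successive bin, with 0.337 in bin 1, 2.29 in bin 4, 4.32 in bin 7 and 5.07 in bin 10. Nova1 went the other way first, with 0.255 in bin 1, 0.126 in bin 5 and 0.573 in bin 10, and Ptbp2 stayed between 1.58 and 2.05 throughout.

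**Figure D4:**
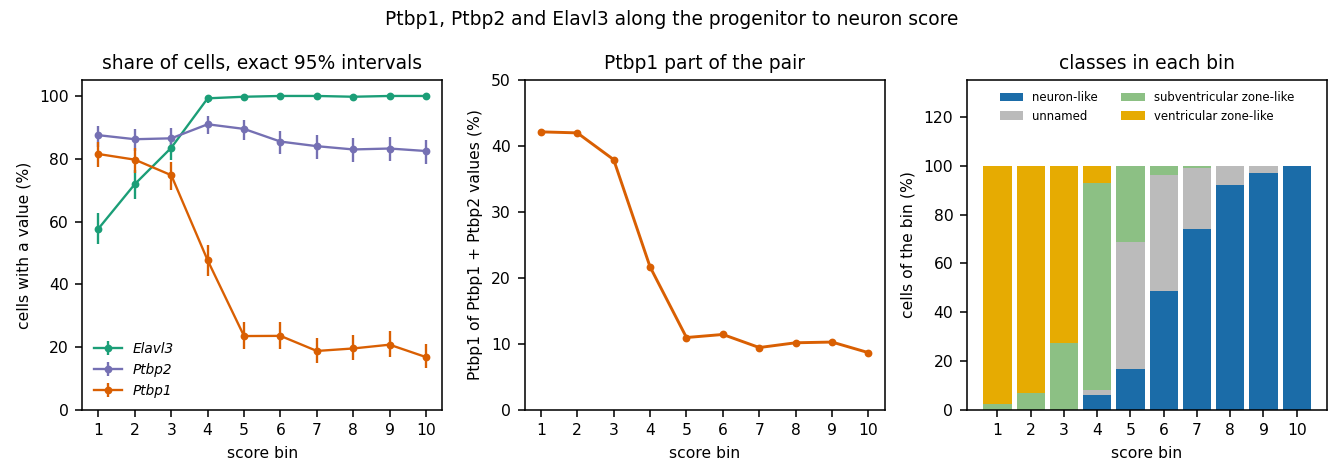
Left, share of cells with a value of Elavl3, Ptbp2 or Ptbp1 in each bin of the progenitor to neuron score, with exact 95% intervals that cover cell counting only; middle, Ptbp1 as a percentage of summed Ptbp1 and Ptbp2 values; right, cell classes in each bin. Ptbp1 is found in 81.5% of cells in bin 1, 47.6% in bin 4 and 16.8% in bin 10, and its part of the pair is 42.2%, 21.7% and 8.7% in those bins.

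Known regulators of Ptbp1 and of neuronal genes were read in the same bins. Mir124a-1hg, a host transcript of miR-124, was at 0.0298 per 10000 in bin 1, 0.658 in bin 4, 1.56 in bin 7 and 0.954 in bin 10. Mir124-2hg, another, was at 0.55 in bin 1, 1.2 in bin 4, 2.25 in bin 9 and 1.83 in bin 10. Mir9-3hg, a host transcript of miR-9, was at 1.67 in bin 1, 2.16 in bin 6 and 0.503 in bin 10. All 3 thus had their highest level between the end bins. Rest was at 0.950 per 10000 in bin 1, 0.144 in bin 4 and 0.0499 in bin 10, but it is one of the progenitor genes of the score, so its order there was set by construction. Between classes it was at 0.0908 in neuron-like and 0.701 in VZ cells (log2 ratio -2.95). Mir124a-1hg was at 1.32 in neuron-like and 0.0579 in VZ cells (4.51), and Mir124-2hg at 2.03 and 0.717 (1.5). Host transcripts do not measure the mature microRNA. Also in that list of 8, Ctdsp1 and Ctdspl, phosphatases that act with REST, were lower in neuron-like cells (-3.17 and -1.64). Mir9-3hg, Rcor1 and Rcor2 did not pass 2-fold between the classes, which leaves 2 higher and 3 lower of 8, against 17.6% and 24.3% of all genes. The median log2 ratio of the 8 was -0.24, near the -0.15 of all genes. In SVZ cells Mir124a-1hg was already higher than in VZ cells (3.50), and Rest (-2.09), Ctdspl (-1.41) and Ctdsp1 (-1.18) were lower. That is 1 higher and 3 lower of 8, against 4.7% and 12.2% of all genes.

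Values of Ptbp1 and of neuronal genes were found in the same single cells, and these shares too were not read as expression. Both Ptbp1 and Elavl3 had a value in 19.9% of neuron-like, 44.4% of SVZ and 55.8% of VZ cells, and both Ptbp1 and Ptbp2 in 16.9%, 41.3% and 70.6%. Within SVZ cells, Elavl3 was found in 98.2% of the 284 cells with Ptbp1 and 96.2% of the 345 without it, and Rbfox2 in 82.4% (77.5% to 86.6%) and 89.6% (85.8% to 92.6%). In VZ cells Rbfox2 was found in 361 of the 880 cells with Ptbp1 and 100 of the 200 without it, and Elavl4 in 18.8% and 26.5% of them. The intervals for cells with and without Ptbp1 overlapped for all 9 other genes within each of the 3 classes, which does not show that the shares were equal. Over all cells they were apart for 6 of the 9, with Elavl4 found in 46.9% of cells with Ptbp1 and 76.6% of cells without it, but all cells mix the classes. In the bins the intervals were apart in 1 of 90 comparisons: in bin 1, Rbfox2 was found in 27.9% of cells with Ptbp1 and 45.9% of those without. An absent value is not absence of the transcript at this depth. Doublets (6 cells called and removed) and RNA from outside the cell were not separated from co-detection, and their part in it was not tested.

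GABAergic and cholinergic lineages are the ones in the title of the series, and few of the 10 genes passed 2-fold between neurons of those types. In 629 cholinergic neuron-like cells against 535 GABAergic MGE neuron-like cells, 1 gene, Nova1, was higher past 2-fold and 0 were lower. That call was lost with clustering seed 1 (log2 ratio 0.70) and with doublets kept (0.76). Across 11666 genes, 4.15% were higher and 2.35% lower (6.5% in all). Nova1 averaged 0.357 ± 0.695 per 10000 in cholinergic neuron-like cells and 0.146 ± 0.349 in GABAergic MGE neuron-like cells (log2 ratio 1.29). It was found in 29.1% (25.6% to 32.8%) and 16.3% (13.2% to 19.7%) of them, at low levels. Elavl4 was next, at 2.31 and 1.51 (0.61), and Rbfox3 (-0.79), Srrm4 (-0.48) and Khdrbs2 (-0.34) had the lowest ratios. Ptbp1 was at 0.199 in cholinergic and 0.201 in GABAergic neuron-like cells (-0.01). The median log2 ratio was -0.16 over the 10 genes and 0.01 over all genes.

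The Nova1 result also rested on 1 of the 2 cholinergic neuron-like clusters. Nova1 was at 0.550 in cluster 8, led by Foxp2, Chl1 and Robo3, and at 0.239 in cluster 4, led by Nr4a2, Gbx1 and Zic1. Without cluster 8 no gene of the 10 was higher past 2-fold, and without cluster 4 Nova1 had a log2 ratio of 1.92 and Elavl4 one of 1.07. Elavl2 was at 1.93 in cluster 8 and 4.33 in cluster 4, on either side of the 3.86 of the GABAergic cluster 2, and Khdrbs2 at 0.872 and 2.30, on either side of 2.23. Elavl4, at 3.18 and 1.78, was above the 1.51 of cluster 2 in both. Cluster 8 met 10 of the 11 neuron markers and cluster 4 met 3. Lhx8, a factor of cholinergic development, was at 9.40 in cluster 8, 12 in cluster 4 and 3.60 in the GABAergic cluster 2. The GABAergic MGE list summed to 14.6, 26.8 and 39.1 in clusters 8, 4 and 2. Gad2 of that list was at 5.31, 7.90 and 8.35, Lhx6 at 2.47, 3.23 and 3.54, and Sst at 0.0312, 0.172 and 2.94. The cholinergic name thus does not mean that GABAergic genes were absent. The unnamed cluster 6 had Lhx8 at 10.7 and a cholinergic list sum of 16.3, against 18.7 in cluster 8 and 19.6 in cluster 4. Its Nova1 level of 0.104 was the lowest of all clusters, and this cluster stayed outside the contrast. Of the 10 cholinergic markers, Chat and Slc18a3, which define the transmitter, had no row in the matrix, and the cluster name rests on transcription factors and receptors.

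Other RNA-binding protein genes were read beside the 10, again against the 17.6% of all genes higher and 24.3% lower in neuron-like than in VZ cells. Of 19 other neuronal factors, 10 were higher and 1 lower in neuron-like than in VZ cells past 2-fold (median log2 ratio 1.05). Celf4, of the CUGBP and Elav-like family, was at 6.67 in neuron-like and 0.307 in VZ cells (4.44), and Srrm3, the relative of Srrm4, at 1.01 and 0.0461 (4.45). Nol4 (4.19), Celf6 (3.71), Celf3 (3.71), Celf5 (3.54), Cpeb4 (2.42), Rbfox1 (2.22), Nova2 (2.10) and Celf2 (1.05) were also higher, and Rbm24 was lower (-1.32). Nova2, the paralogue of Nova1, was thus past 2-fold where Nova1 was not. In SVZ over VZ cells 8 of the 19 were higher and 0 lower: Srrm3 (3.23), Nol4 (2.99), Celf3 (2.30), Celf4 (2.11), Cpeb4 (1.57), Rbm24 (1.51), Nova2 (1.12) and Celf6 (1.02). Of all genes, 4.7% were higher and 12.2% lower there. Between cholinergic and GABAergic MGE neuron-like cells none of the 18 with enough values passed 2-fold, against 6.5% of all genes.

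Of 31 progenitor or broadly used factors, 29 had a row, and 0 were higher and 7 lower in neuron-like than in VZ cells (median log2 ratio -0.37). The lower count is near the 24.3% of all genes and is no result about the list. Qk, which encodes Quaking, was at 2.54 in neuron-like and 5.71 in VZ cells (-1.17). The others were Mbnl1 (-1.45), Msi2 (-1.18), the splicing factor gene Srsf2 (-1.18), Raver1, a PTBP1 partner (-1.16), Igf2bp1 (-1.07) and U2af1 (-1.03). Ptbp3, the third PTBP paralogue, was at 0.222 in neuron-like and 0.283 in VZ cells (-0.35), and Elavl1 (HuR), the broadly expressed Elavl gene, at 1.52 and 1.9 (-0.32). Neither passed 2-fold, in contrast to Ptbp1 and the 3 neuronal Elavl genes. In SVZ over VZ cells Mbnl1 alone of the 29 passed 2-fold (-1.66), against 4.7% of all genes higher and 12.2% lower. Between cholinergic and GABAergic MGE neuron-like cells Lin28a (3.83, from 35 summed values in all) and Lin28b (1.2, at 0.415 and 0.181 per 10000) were higher, and Ctdspl of the regulator list was lower (-1.19). Of all genes, 4.15% were higher and 2.35% lower there.

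Among 14 transcripts known for exons that PTBP proteins repress, 4 were higher and 3 lower in neuron-like than in VZ cells (median log2 ratio 0.52), against 17.6% and 24.3% of all genes, so the lower count is near the share of all genes. Mapt, which encodes tau, was at 4.41 in neuron-like and 0.142 in VZ cells (4.96), but it is also one of the neuron markers that named the classes. Dnm1 (3.14) and the postsynaptic scaffold gene Dlg4, at 0.776 and 0.205 (1.92), were higher, as was the GABA-B receptor gene Gabbr1, at 0.862 and 0.236 (1.87). Bak1, a cell death gene (-2.47), and Flna (-1.17) were among the lower. In SVZ over VZ cells 0 of the 14 were higher and 1 lower, against 4.7% and 12.2% of all genes. None passed 2-fold between cholinergic and GABAergic MGE neuron-like cells, against 6.5% of all genes. These are transcript levels, and exon use was not measured.

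The genes most like each of the 10 were found by Pearson correlation of log2 level over the 15 clusters, among 6184 genes. The clusters come from 1 library and vary mainly along the same axis, so high values are common, and they are given as a description. Among the genes most like Ptbp1 were Ppat (0.98) and Adsl (0.98), enzymes of purine synthesis. Elavl3 was most like Traf4 (0.99), Tubb3 (0.99) and Gdpd1 (0.98), and Elavl4 like Traf4 (0.94), Myt1 (0.94) and Carhsp1 (0.93). Srrm4 was most like Carhsp1 (0.94), Rbpj (0.92) and Dpysl3 (0.92), so Elavl4 and Srrm4 had a neighbour in common. Rbfox2 was most like Apc2, Aff4 and Dbn1 (0.99 each), Elavl2 like Lmbr1l (0.97), Pfn2 (0.97) and Cript (0.96), and Khdrbs2 like Tnrc18 (0.95), Nxph1 (0.92) and Bcl11a (0.91).

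The genes most like the other 3 were Zfp553 (0.93), Scp2 (0.90) and Dazap2 (0.88) for Ptbp2, Cadm1 (0.93), Arxes1 (0.92) and Rnf121 (0.90) for Nova1, and Cotl1 (0.90), Arxes2 (0.89) and Olfm1 (0.88) for Rbfox3. Among the 10 themselves over the same 15 clusters, Elavl3 and Rbfox2 had r = 0.95 and Elavl3 and Elavl4 r = 0.93. Ptbp1 ran opposite to Rbfox2 (r = -0.95) and to Elavl3 (r = -0.88), and Ptbp1 and Ptbp2 had r = 0.31.

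In the GENCODE annotation of GRCm38 all 10 are protein-coding genes on 9 chromosomes, so only Elavl2 (chr4:91250763-91400785, minus strand) and Elavl4 (chr4:110203722-110351909, minus) share one. Elavl3 lies at chr9:22015005-22052023 (minus), Ptbp1 at chr10:79854427-79864771 (plus) and Ptbp2 at chr3:119718742-119784466 (minus). Nova1 lies at chr12:46694517-46818929, Rbfox2 at chr15:77078990-77307004, Rbfox3 at chr11:118489762-118911597 and Srrm4 at chr5:116439275-116591817, all on the minus strand, and Khdrbs2 at chr1:32172714-32658568 on the plus strand.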

How the data were processed

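Cells of the mouse MGE were profiled in 1 pooled 10x library. Per the submitters' processing notes, reads were handled with bcl2fastq and with Cell Ranger 3.0.2 on GRCm38. The matrix the authors deposited held 18088 gene rows and 4001 cells as whole numbers from 0 to 1245. Its unit was taken to be a score that the authors derived from UMIs, because cell totals lay only between 10475 and 14196 (median 12506) and 205 cells (5.12%) skipped the value 1 (under 10% of values over 1171 genes). No source used here gives the step that made it, so raw depth is unknown and no count test was run. Cells that skip 1 made up 5.12% of neuron-like, 4.93% of SVZ, 2.50% of VZ and 10.6% of unnamed-cluster cells. For 9 repeated symbols the row of largest sum was kept.

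Scrublet at an expected rate of 5% called 6 cells (0.150%), which were removed. So few calls do not show that doublets were rare. All cells had at least 1000 genes, and the matrix had 0 mitochondrial rows. Clustering in scanpy 1.11.5 used 2000 variable genes, 30 components, 15 neighbours and Leiden resolution 1 (igraph 0.11.9, seed 0), without the 10 genes. A class name needed 3 markers at 1.5 times all other cells and in 10% of cells, and the highest mean standardized level decided. Types of neuron were named only within neuron-like clusters. The naming rule was set after cluster values had been seen, and members and lists were chosen with earlier results of these data known. Level computation was tested on simulated data.

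Ratios past 2-fold among genes with at least 30 summed values were listed. SDs and exact (Clopper-Pearson) 95% intervals describe cells of 1 library and cover cell counting only. Named genes were the 10, list members past 2-fold and, for each of the 10, the 3 genes most alike by log2(level + 0.1) among genes of mean level at least 0.2. Some genes that this rule selects are not reported here. A few genes that name a cluster or state a list's limit fall outside that rule. Sequences came from the RefSeq promoter table and the GENCODE M21 transcripts.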

Additional observations from a re-analysis of the deposited data

How the results depend on the processing

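No paired analysis was possible because there was 1 pooled library and no replicate. Alternatives were other clustering resolutions, more variable genes, another seed, the 10 genes allowed in the clustering, values as deposited, cells that skip the value 1 left out, doublets kept, other folds and at least 100 summed values. Added after seeing the data were the unnamed clusters counted as neurons and VZ or cholinergic neuron-like clusters left out in turn. Between neuron-like and VZ cells, all 120 log2 ratios stayed within 1.5-fold of the reported values, with 6 to 7 genes higher and 1 lower in every alternative. Between SVZ and VZ cells, 3 were higher and 0 lower past 4-fold, and 2 were lower past 1.5-fold. With seed 1, 6 were higher, Rbfox3 being the addition, and its log2 ratio ranged between -0.14 and 1.01. Between cholinergic and GABAergic MGE neuron-like cells, 2 genes were higher and 1 lower past 1.5-fold, and 0 were higher past 4-fold. There 0 were higher with seed 1, with doublets kept and without cluster 8, and 2 were higher and 2 lower without cluster 4 (Elavl2 -1.0 and Khdrbs2 -1.35, against ratios as high as 0.17 and 0.05 in other alternatives). Nova1 ranged between 0.70 and 1.92 there. Along the score, 7 to 8 genes were higher (Nova1 being the one lost) and 1 lower between the end bins, where no share of all genes was computed. Co-detection moved most. With a value of 2 or more required, Ptbp1 and Elavl3 were both found in 2.65% of neuron-like, 15.4% of SVZ and 21.1% of VZ cells, and Ptbp1 and Ptbp2 in 1.73%, 12.7% and 29.3%. With each cell thinned to 10000 values the shares were 16.8%, 37.8% and 42.9%, and 12.8%, 34.0% and 54.8%. The cause of these moves was not tested, beyond the stricter threshold and the lower total that these settings impose.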
